A study of Mus musculus with 30 samples.

Results

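The genes followed here are 6 core genes of the Hedgehog pathway, Gli1, Gli2, Gli3, Ptch1, Hhip and Smo. Their members on the array are all probe sets annotated with exactly 1 of these symbols. There are 16 such probe sets of 34945 that carry 1 gene symbol, and 6 genes of 18193. Gli1 has 1 probe set, Gli2 has 2, Gli3, Ptch1 and Smo have 3 each, and Hhip has 4.

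Hedgehog ligands are secreted proteins that pattern the neural tube, limb and gut of the embryo. The ligand binds Patched1 (Ptch1), a membrane protein that otherwise keeps the membrane protein Smoothened (Smo) inactive. Once released, Smoothened acts in the primary cilium and turns the Gli transcription factors into activators. Ptch1, Gli1 and Hhip are themselves Gli target genes, so their RNA is widely used as a readout of the pathway.

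The cells were KH2, a mouse embryonic stem cell line kept on feeder fibroblasts, and their RNA was measured on 30 one-colour Affymetrix arrays during exposure to retinoic acid (RA) at 0.3 uM. Times of 12 h and 24 h have 6 arrays, lettered A to F in the titles, and the other times (8 h, 16 h, 36 h, 48 h, 60 h, 72 h) have 3. The 8 h samples are labelled baseline and all later ones retinoic acid. Whether the 8 h cells had received RA is not given, so no group is known to be untreated. All groups share the line, the feeders and a 30 min replating on gelatin before lysis, and the labels do not say whether the arrays of a group came from separate cultures. P-values therefore measure only the spread between these samples, which may be technical.

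Values are log2 intensities, normalized between arrays, with array medians between 6.34 and 6.39 and lower quartiles between 4.73 and 4.85. Precision is limited by having 3 arrays a group, and 0 of 30 within-group pairs of arrays were identical. A spike-in control difference split the arrays into 12 (8 h, 12 h A to C, 16 h and 24 h A to C; 0.99 to 1.07 log2) and 18 (12 h D to F, 24 h D to F and all from 36 h on; 1.34 to 1.63 log2). These are called set 1 and set 2 here, and comparisons were kept within a set except where stated. Pluripotent stem cell markers averaged 12.58 to 12.66 log2 on the 8 h arrays and 11.24 to 11.51 at 72 h. Embryonic fibroblast markers, 23 of 23 measured, averaged 8.14 to 8.36 at 8 h and 9.21 to 9.74 at 36 h. They averaged 10.25 to 11.29 at 48 h, 9.91 to 10.59 at 60 h and 10.23 to 11.05 at 72 h. None of the 23 lay under the lower quartile in any group. In bulk RNA, fewer cells of a type and less RNA per cell cannot be told apart.

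Promoters of 3 members are shown: Smo and Gli3, which both ended higher in set 2, and Ptch1, which rose and then fell. These courses are not theirs alone, as Gli2 and Hhip also ended higher there. Each is the RefSeq window from 250 bases before to 50 after the annotated start on GRCm38.p6, printed 5′ to 3′ on the gene's strand. Capitals mark GC boxes (GGGCGG, or its reverse complement), the short GC-rich motif of many promoters without a TATA box.
Ptch1: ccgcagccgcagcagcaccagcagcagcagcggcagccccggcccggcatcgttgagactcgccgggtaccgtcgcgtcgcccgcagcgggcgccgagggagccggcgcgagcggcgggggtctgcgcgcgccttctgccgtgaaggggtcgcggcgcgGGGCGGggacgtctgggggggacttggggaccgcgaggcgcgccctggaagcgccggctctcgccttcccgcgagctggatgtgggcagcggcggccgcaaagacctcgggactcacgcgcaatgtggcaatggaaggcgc
Gli3: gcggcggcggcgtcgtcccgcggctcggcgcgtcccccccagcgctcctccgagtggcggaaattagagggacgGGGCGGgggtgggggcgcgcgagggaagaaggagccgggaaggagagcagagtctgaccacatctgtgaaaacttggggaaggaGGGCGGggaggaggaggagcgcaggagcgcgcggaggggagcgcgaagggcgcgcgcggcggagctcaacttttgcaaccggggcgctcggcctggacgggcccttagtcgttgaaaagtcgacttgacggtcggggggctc
Smo: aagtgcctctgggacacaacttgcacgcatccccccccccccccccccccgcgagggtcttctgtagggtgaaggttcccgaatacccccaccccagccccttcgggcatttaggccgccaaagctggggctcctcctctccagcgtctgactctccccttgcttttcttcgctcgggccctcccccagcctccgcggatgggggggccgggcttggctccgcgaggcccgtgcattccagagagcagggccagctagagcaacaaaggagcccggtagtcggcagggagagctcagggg
The Ptch1 window lies at chr13:63565686-63565985 on the minus strand, the Gli3 window at chr13:15463473-15463772 on the plus strand and the Smo window at chr6:29735247-29735546 on the plus strand. All 3 are rich in G and C, at 76.3% for Ptch1, 71.0% for Gli3 and 67.7% for Smo, against a median of 52.7% over 32851 mouse windows. CpG pairs numbered 47, 39 and 17 in that order, against a median of 7. The Ptch1 window holds 1 GC box, 91 bases before the start, the Gli3 window holds 2, at 176 and 92 bases before it, and the Smo window holds none. A GC box occurs in 35.7% of all windows.

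The windows of 5 members (Gli2, Gli3, Ptch1, Hhip and Smo) were searched on both strands for the Gli binding motif GACCACCCA and for the retinoic acid receptor half-site AGGTCA. None of the 5 windows held either motif. The Gli motif occurs in 0.253% of all windows, or in 0.977% with 1 base free (GACCNCCCA), and the half-site in 16.3%. Direct repeats of that half-site spaced by 5 or by 2 bases, the classical receptor sites, occur in 0.00913% each. These letters were absent from windows of 300 bases, which says nothing of sites elsewhere.

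Over the first day, 24 h A to C against 8 h, Ptch1, Hhip and Smo rose. Their intensities reached 2.08 times the 8 h level for Ptch1, 2.42 times for Hhip and 2.00 times for Smo. Gli3 rose to 1.52 times and Gli2 fell by 0.49 on the log2 scale, while Gli1 did not pass the test. Of the 16 probe sets 12 passed (limma, two-sided, Benjamini-Hochberg adjusted p under 0.05 over the whole array), where 31.5% of all probe sets did. Higher were 10 of 16 (17.6% of all) and lower 2 of 16 (13.9%). The median change over the members was 0.61 log2, against -0.04 over all probe sets. Fibroblast markers were higher for 5 of 23 genes in the same comparison, with a median of 0.30.

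Later, 72 h against 12 h D to F, Gli1 fell by 2.37 on the log2 scale and Ptch1 fell by 1.29, whereas Gli3 and Smo rose by 1.21 and 1.18 and Gli2 and Hhip by 0.50 and 0.41. Of the 16 probe sets 14 passed (53.5% of all), with 10 higher (23.3%) and 4 lower (30.2%). The median change was 0.46 over the members and -0.08 over all probe sets. The 2 probe sets that did not pass were 1 of Gli3 and 1 of Smo, both low throughout.

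**Figure D1:**
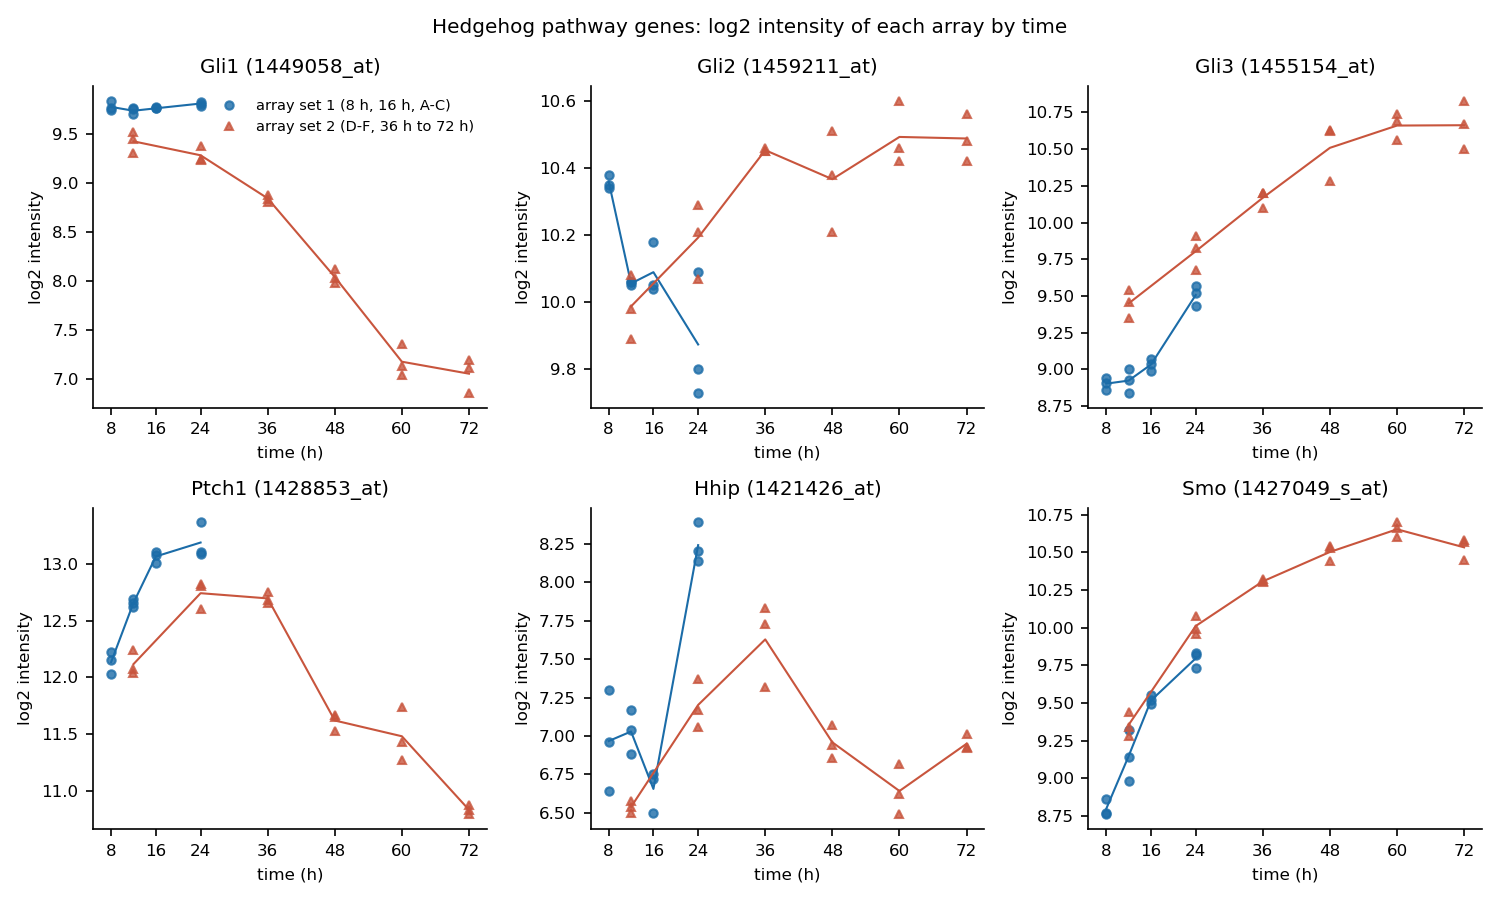
Log2 intensity (vertical axis) of the highest probe set of each of the 6 genes against time in hours; each point is 1 array, lines join group means, and colours separate set 1 and set 2. Gli1 stays between 9.70 and 9.84 in set 1 and ends between 6.86 and 7.20 at 72 h, while Smo lies between 8.76 and 8.86 at 8 h and between 10.45 and 10.58 at 72 h.

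Ptch1 is both the receptor and a target of the pathway. Its main probe set, 1428853_at, read 12.22, 12.15 and 12.03 log2 at 8 h, and 12.62, 12.66 and 12.69 on 12 h arrays A to C. It then read 13.01, 13.11 and 13.08 at 16 h and 13.11, 13.37 and 13.09 on 24 h arrays A to C. The 8 h arrays lay below all later arrays of set 1, and 16 h and 24 h overlapped. The rise was 0.52 ± 0.09 log2 (SE) from 8 h to 12 h (limma adjusted p = 0.00046) and 0.41 ± 0.09 from 12 h to 16 h (adjusted p = 0.003). The step from 16 h to 24 h, 0.12 ± 0.09, did not pass (adjusted p = 0.36). With arrays A to F of 12 h as 1 group, the rise from 8 h to 12 h was 0.25 with an adjusted p of 0.38 and did not pass.

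In set 2, Ptch1 read 12.24, 12.04 and 12.07 on 12 h arrays D to F and 12.82, 12.60 and 12.81 on 24 h arrays D to F. It read 12.75, 12.68 and 12.66 at 36 h, 11.65, 11.67 and 11.53 at 48 h, 11.74, 11.43 and 11.27 at 60 h, and 10.83, 10.79 and 10.87 at 72 h. On this probe set Ptch1 thus held a plateau from 24 h to 36 h and came down in separate steps, with all 72 h arrays under all others. It rose by 0.63 ± 0.09 from 12 h to 24 h (limma adjusted p = 1.9e-05), as in set 1, where the change between the same times was 0.53. It fell by 1.08 ± 0.09 from 36 h to 48 h (adjusted p = 3.2e-08). The change from 48 h to 60 h, -0.14, did not pass (adjusted p = 0.33). It did pass as lower with array weights (-0.20, adjusted p = 0.04) and without 60 h array A (-0.27, adjusted p = 0.042). A further step of -0.65 ± 0.09 came from 60 h to 72 h (adjusted p = 8.2e-05). That step did not pass when the 60 h and 72 h arrays were fitted alone (adjusted p = 0.11).

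The other Ptch1 probe sets were dimmer and moved less. Probe set 1439663_at rose by 0.50 ± 0.10 over the first day (limma adjusted p = 0.00033; 0.34 with an adjusted p of 0.078 when times were grouped as labelled). It fell by 0.39 ± 0.10 from 12 h to 72 h in set 2 (adjusted p = 0.0018). Its level at 48 h, 6.49 log2, was down from 6.86 at 36 h (-0.36 ± 0.10, adjusted p = 0.012) but above the 6.35 of 12 h arrays D to F, and the levels under that lay at 60 h and 72 h, at 6.13 and 5.96. The change from 48 h to 60 h, -0.36, passed (adjusted p = 0.011). It did not pass with the 2 groups alone (0.11), with times grouped as labelled (0.19) or without 60 h array B (0.087), all adjusted p. Probe set 1450824_at changed by 0.05 ± 0.10 over the first day (adjusted p = 0.76) and fell by 0.50 ± 0.10 in set 2 (adjusted p = 0.00021). All 3 Ptch1 probe sets therefore ended lower in set 2, and the 3 differed over the first day.

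In the order of its group means, Ptch1 (1428853_at) ran from 13.19 on 24 h arrays A to C down to 10.83 at 72 h. Neighbours in that order separated without overlap of arrays at 4 of 9 places: 16 h over 24 h D to F, 12 h A to C over 8 h, 12 h D to F over 48 h, and 60 h over 72 h. The groups between these gaps overlapped.

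Hhip, the Hedgehog-interacting protein, binds the ligand at the cell surface and withholds it from Patched. Its probe set 1421426_at read 6.96, 7.30 and 6.64 log2 at 8 h, 7.04, 6.88 and 7.17 on 12 h arrays A to C, and 6.72, 6.50 and 6.75 at 16 h. On 24 h arrays A to C it read 8.20, 8.39 and 8.14. The 24 h arrays lay above every other array of the course for this probe set. The step from 16 h to 24 h was 1.58 ± 0.14 (limma adjusted p = 5.7e-09). On the other 3 probe sets it was 2.27, 1.84 and 1.41, all higher. From 8 h to 24 h A to C the 4 probe sets rose by 1.27, 1.36, 1.38 and 0.66 (adjusted p 9.5e-08 to 0.005), and the last, 1437933_at, did not pass without 24 h array B (0.45, adjusted p = 0.06).

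This rise came after a dip. From 12 h A to C to 16 h, probe sets 1455277_at, 1438083_at and 1437933_at fell, by 0.94, 0.60 and 0.56 (limma adjusted p = 0.00049, 0.0037 and 0.029), and 1421426_at was lower by a change of -0.37 that did not pass (adjusted p = 0.061). That fall did pass when array set was added as a block (-0.51, adjusted p = 0.012) and, narrowly, after quantile normalization, without dim probe sets, with 1 probe set per gene and with the 2 groups alone (adjusted p 0.042 to 0.049). With 12 h arrays A to F as 1 group none of the 3 falls passed, at -0.66, -0.42 and -0.39 (adjusted p = 0.073, 0.13 and 0.092). Without 12 h array A, or without 16 h array B or C, the fall of 1437933_at did not pass (adjusted p = 0.14, 0.08 and 0.088).

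In set 2 Hhip (1421426_at) read 6.54, 6.58 and 6.50 on 12 h arrays D to F, 7.17, 7.06 and 7.37 on 24 h arrays D to F and 7.32, 7.73 and 7.83 at 36 h. It read 6.86, 7.07 and 6.94 at 48 h, 6.62, 6.49 and 6.82 at 60 h, and 6.92, 7.01 and 6.93 at 72 h. On this probe set Hhip was highest at 36 h, and its arrays from 48 h on all lay under those of 36 h. The other probe sets did not all share this: 1437933_at was highest on 24 h arrays D to F, at 6.01 against 5.89 at 36 h, and 1455277_at stood at 7.34 at 72 h, with arrays overlapping those of 36 h. Probe set 1421426_at rose by 0.66 ± 0.14 from 12 h to 24 h (limma adjusted p = 0.00068). From 36 h to 48 h it fell by 0.67 ± 0.14 (adjusted p = 0.0011, or 0.13 with times grouped as labelled). The rise of 0.43 from 24 h to 36 h sat at the threshold (adjusted p = 0.049), and against all 6 arrays of 24 h it was -0.09. It did not pass with the array set as a block, after quantile normalization or median centring, with array weights, with the 2 groups alone, or without any 1 of 24 h arrays D and E and 36 h arrays B and C (adjusted p up to 0.23). The other probe sets split at this step. Probe set 1438083_at rose by 0.59 (limma adjusted p = 0.0072), or by 0.14 against all 6 arrays of 24 h (adjusted p = 0.71). Means of 1455277_at went from 7.17 to 7.58, and those of 1437933_at from 6.01 to 5.89. By 72 h all 4 probe sets stood higher than on 12 h arrays D to F, by 0.41 to 0.89 (adjusted p 0.013 to 0.00012). Against all 6 arrays of 12 h, 3 of these rises did not pass, at 0.17, 0.60 and 0.31 (adjusted p = 0.56, 0.059 and 0.21). At 48 h, without the 60 h and 72 h arrays, the rise of 1455277_at was 0.31 and did not pass (adjusted p = 0.17).

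The group means of Hhip (1421426_at) spanned 1.70 log2, from 8.24 on 24 h arrays A to C to 6.54 on 12 h arrays D to F. Only 2 of 9 neighbouring pairs in that order did not overlap, 24 h A to C over 36 h and 72 h over 16 h.

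Smo, the transducer that Patched holds back, rose at each step up to 36 h. Probe set 1427049_s_at read 8.86, 8.76 and 8.77 log2 at 8 h, 8.98, 9.14 and 9.32 on 12 h arrays A to C, 9.55, 9.52 and 9.49 at 16 h, and 9.73, 9.82 and 9.83 on 24 h arrays A to C. No arrays of neighbouring times in set 1 overlapped. The steps were 0.35, 0.37 and 0.28, each ± 0.07 (limma adjusted p = 0.00086, 0.00037 and 0.002). In sum Smo rose by 1.00 ± 0.07 over the first day (adjusted p = 5.1e-11).

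In set 2 Smo read 9.28, 9.34 and 9.44 on 12 h arrays D to F, 9.96, 9.99 and 10.08 on 24 h arrays D to F and 10.30, 10.32 and 10.31 at 36 h. It read 10.54, 10.44 and 10.53 at 48 h, 10.60, 10.66 and 10.70 at 60 h, and 10.58, 10.57 and 10.45 at 72 h. The gain slowed after 36 h, and the 60 h arrays were the highest. Smo rose by 0.66 ± 0.07 from 12 h to 24 h (limma adjusted p = 1.2e-07) and by 0.30 ± 0.07 to 36 h (adjusted p = 0.0051). The rise of 0.19 to 48 h sat at the threshold (adjusted p = 0.045) and did not pass without any 1 of 36 h arrays A, B and C and 48 h arrays A and C (adjusted p 0.084 to 0.14). Nor did it pass with the array set as a block (0.053), with array weights (0.076), with the 2 groups alone (0.17) or with times grouped as labelled (0.23), all adjusted p.

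A second Smo probe set, 1427048_at, shares its target accession with the first and is not independent of it. It rose by 0.98 ± 0.07 over the first day (limma adjusted p = 1.9e-10) and by 1.02 ± 0.07 in set 2 (adjusted p = 7.5e-12). Its change from 36 h to 48 h, 0.07 ± 0.07, did not pass (adjusted p = 0.57). The third, 1442215_at, lay between 3.04 and 4.04, under the lower quartile on all 30 arrays, so no change is given for it. In the order of group means of 1427049_s_at, 7 of 9 neighbouring pairs did not overlap, the most of any member probe set. The overlaps were 72 h with 48 h and 12 h D to F with 12 h A to C.

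Gli1 is the Gli factor that acts as an activator and is itself induced by the pathway. Its only probe set, 1449058_at, read 9.74, 9.84 and 9.76 log2 at 8 h, 9.70, 9.76 and 9.75 on 12 h arrays A to C, 9.76, 9.77 and 9.76 at 16 h, and 9.79, 9.83 and 9.81 on 24 h arrays A to C. All 12 arrays of set 1 lay between 9.70 and 9.84, and the 8 h arrays overlapped each later group. The change from 8 h to 24 h was 0.03 ± 0.08 (limma adjusted p = 0.77), with a 95% interval from -0.13 to 0.20. That interval holds no change as large as those of the highest Ptch1, Hhip and Smo probe sets over the same hours.

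In set 2 Gli1 read 9.52, 9.45 and 9.31 on 12 h arrays D to F, 9.38, 9.23 and 9.24 on 24 h arrays D to F and 8.81, 8.88 and 8.84 at 36 h. It read 7.98, 8.12 and 8.03 at 48 h, 7.36, 7.04 and 7.13 at 60 h, and 6.86, 7.11 and 7.20 at 72 h. From 24 h to 60 h each group lay wholly under the one before, and 60 h and 72 h overlapped. Gli1 fell by 0.44 ± 0.08 from 24 h to 36 h (limma adjusted p = 0.00063), by 0.80 ± 0.08 to 48 h (adjusted p = 2e-07) and by 0.86 ± 0.08 to 60 h (adjusted p = 5.5e-08). The last step, -0.12 ± 0.08, did not pass (adjusted p = 0.35). From 12 h to 72 h its intensity dropped 5.16-fold, at -2.37 ± 0.08 log2 (adjusted p = 1.9e-17).

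While Gli1 fell, fibroblast markers rose. From 36 h to 48 h 21 of 23 passed as higher (6.01% of all probe sets), with a median of 1.28 log2, and from 12 h to 72 h 21 of 23 (23.3%), with a median of 1.88. Gli3, Smo, Ptch1 and the marker lists of other lineages moved over the same hours. Endoderm markers averaged 7.45 to 7.55 on 12 h arrays D to F and 8.95 to 9.33 at 72 h, and neural progenitor markers 7.82 to 7.91 and 9.43 to 9.65. The part of these cell types in the changes of the 6 genes was not tested.

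Gli2, the main activator that first answers a Hedgehog signal, changed least of the members' highest probe sets, with group means 0.62 log2 apart. Probe set 1459211_at read 10.35, 10.34 and 10.38 log2 at 8 h, 10.06, 10.06 and 10.05 on 12 h arrays A to C, 10.04, 10.18 and 10.05 at 16 h, and 9.80, 10.09 and 9.73 on 24 h arrays A to C. The 8 h arrays lay above all others of set 1. Gli2 fell by 0.30 ± 0.08 from 8 h to 12 h (limma adjusted p = 0.014), and without 8 h array C the change of -0.29 did not pass (adjusted p = 0.051). From 8 h to 24 h the change was -0.49 ± 0.08 (adjusted p = 6.2e-05).

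In set 2 Gli2 moved the other way. It read 9.98, 10.08 and 9.89 on 12 h arrays D to F, 10.21, 10.07 and 10.29 on 24 h arrays D to F, and 10.45, 10.45 and 10.46 at 36 h. It then read 10.38, 10.51 and 10.21 at 48 h, 10.42, 10.46 and 10.60 at 60 h, and 10.56, 10.48 and 10.42 at 72 h. All arrays from 36 h on lay above those of 12 h, and the groups from 36 h on overlapped each other. Gli2 rose by 0.50 ± 0.08 from 12 h to 72 h (limma adjusted p = 1.5e-05). The step from 24 h to 36 h, 0.26 ± 0.08, sat at the threshold (adjusted p = 0.048) and did not pass without any 1 of 24 h arrays D and E and 36 h arrays A, B and C (adjusted p 0.099 to 0.2). Nor did it pass after quantile normalization (0.066), with the 2 groups alone (0.1) or with the title letter as a block (0.059), all adjusted p. The second Gli2 probe set, 1446086_s_at, shares its target accession with the first. It fell by 0.57 over the first day (adjusted p = 8.8e-06) and rose by 0.43 in set 2 (adjusted p = 0.00011).

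Gli3 supplies the main repressor of Hedgehog targets when no ligand is bound. Probe set 1455154_at read 8.91, 8.94 and 8.86 log2 at 8 h, 9.0, 8.84 and 8.93 on 12 h arrays A to C, 9.07, 9.04 and 8.99 at 16 h, and 9.52, 9.57 and 9.43 on 24 h arrays A to C. The 24 h arrays lay above all others of set 1. The step from 16 h to 24 h was 0.47 ± 0.09 (limma adjusted p = 0.00018).

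In set 2 Gli3 read 9.35, 9.46 and 9.54 on 12 h arrays D to F, 9.68, 9.83 and 9.91 on 24 h arrays D to F and 10.10, 10.20 and 10.20 at 36 h. It read 10.62, 10.63 and 10.28 at 48 h, 10.56, 10.74 and 10.69 at 60 h, and 10.83, 10.67 and 10.50 at 72 h. Each group up to 48 h lay wholly above the one before, and the last 3 overlapped. Gli3 rose by 0.36 ± 0.09 to 24 h (limma adjusted p = 0.0037), by 0.36 ± 0.09 to 36 h (adjusted p = 0.009) and by 0.34 ± 0.09 to 48 h (adjusted p = 0.0084). The middle step did not pass without 24 h array D (adjusted p = 0.079). The last did not pass without 48 h array A (adjusted p = 0.056). Nor did it with the 2 groups alone (adjusted p = 0.11) or with 12 h and 24 h each as 1 group (adjusted p = 0.19).

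Another Gli3 probe set, 1456067_at, rose by 0.61 over the first day (limma adjusted p = 3.1e-06) and by 1.46 from 12 h to 72 h in set 2 (adjusted p = 2.6e-13), against 1.21 for the first (adjusted p = 2.1e-11). The third, 1450525_at, stayed between 5.30 and 5.93 and passed in no comparison between times. Its 95% interval for the first day ran from -0.11 to 0.36, which holds neither of the other rises.

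**Figure D2:**
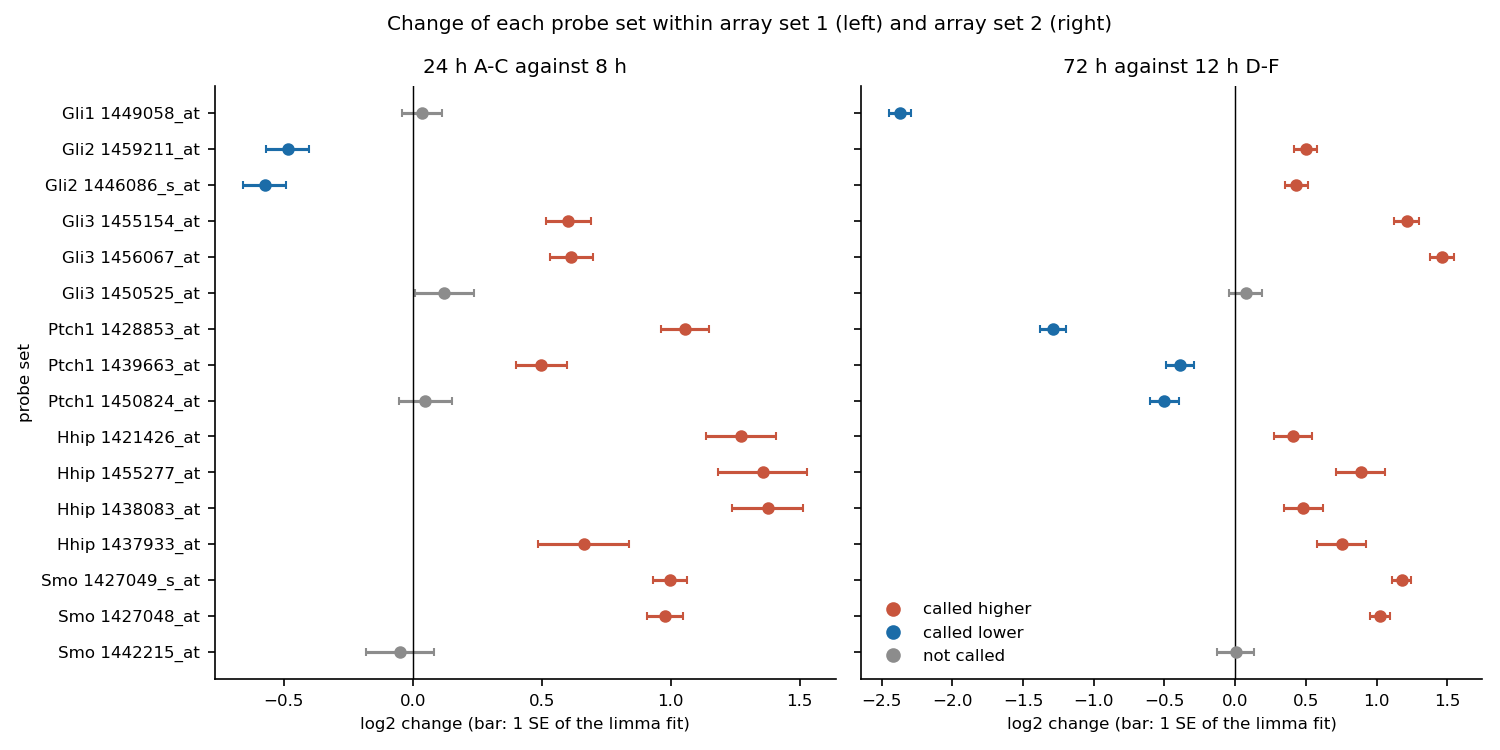
Log2 change (horizontal axis) of each of the 16 member probe sets (vertical axis), in 24 h A to C against 8 h (left) and in 72 h against 12 h D to F (right); bars are 1 SE of the limma fit, and colours show probe sets called higher, called lower or not called. Gli1 lies at 0.03 on the left and at -2.37 on the right, and Ptch1 1428853_at at 1.06 and -1.29.

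**Figure D3:**
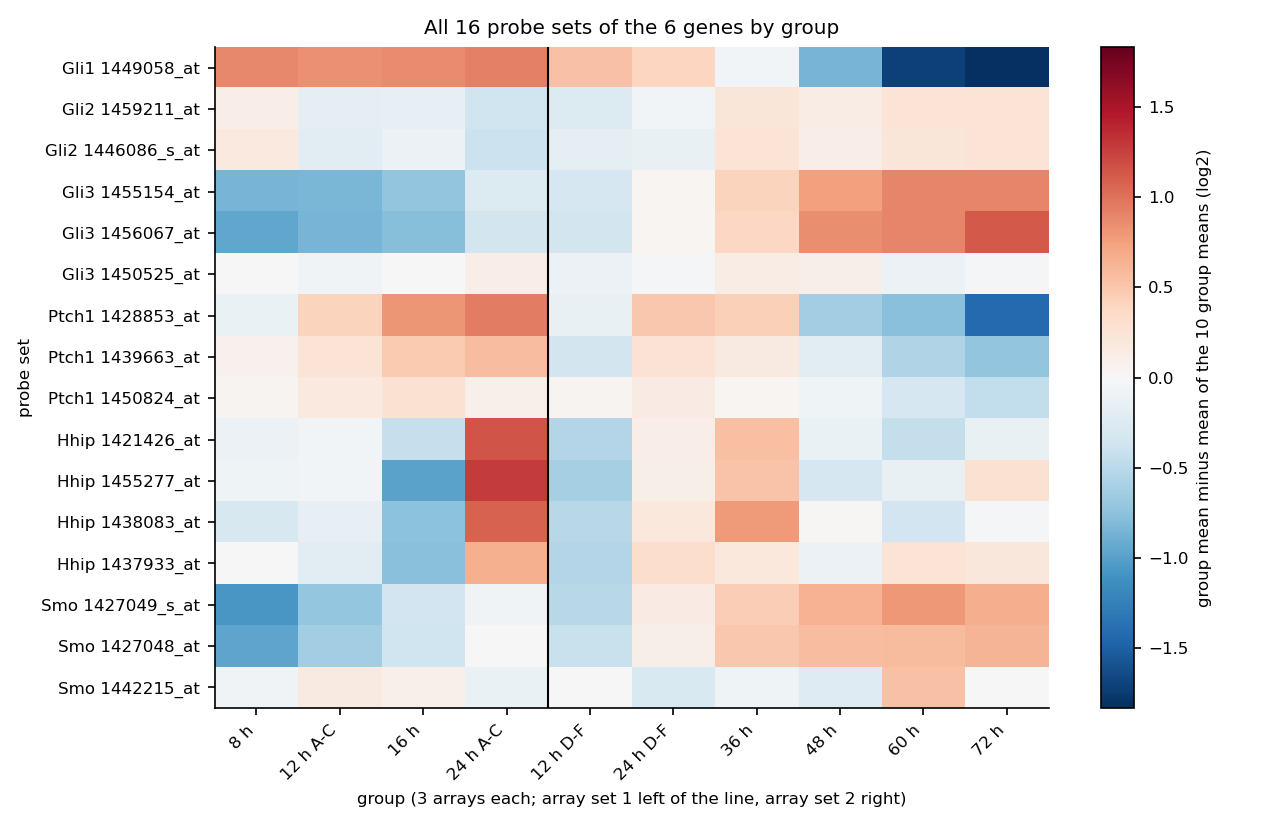
Each row is 1 of the 16 member probe sets and each column 1 of the 10 groups of 3 arrays, with set 1 left of the line and set 2 right of it; colour gives the group mean minus the mean of the 10 group means in log2, red above and blue below. All 4 Hhip probe sets are reddest on 24 h arrays A to C, and from 48 h on Gli1 and Ptch1 1428853_at are blue where Gli3 1455154_at and 1456067_at are red.

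Between neighbouring times the share of members that passed varied. From 8 h to 12 h it was 5 of 16 (14.1% of all probe sets), from 12 h to 16 h 6 of 16 (16.7%) and from 16 h to 24 h 9 of 16 (28.9%), all within set 1. In set 2 it was 10 of 16 from 12 h to 24 h (25.4%), all of them higher (12.9%). It was 9 of 16 from 24 h to 36 h (9.22%), with 8 higher (5.96%), and 9 of 16 from 36 h to 48 h (16.3%), with 6 lower (10.2%). It was then 3 of 16 from 48 h to 60 h (18.4%) and 2 of 16 from 60 h to 72 h (9.06%). Both counts include Smo 1442215_at, which lies under the lower quartile on all arrays. It is the 1 probe set called higher from 48 h to 60 h. Over all times at once, a moderated F test passed 12 of 16 in set 1 (47% of all) and 15 of 16 in set 2 (60.9%). The 48 h to 60 h count of 3 became 5 without 48 h array C and 6 without 60 h array C, where Ptch1 1450824_at and Hhip 1438083_at passed as lower in addition. The 60 h to 72 h count of 2 became 1 without 60 h array A or 72 h array B.

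At the same labelled time, arrays D to F differed from arrays A to C for most members. At 12 h 9 of 16 probe sets passed (32.8% of all) and at 24 h 11 of 16 (28.8%). At 24 h Hhip (1421426_at) was 1.04 lower on arrays D to F (log2 difference -1.04 ± 0.14, limma adjusted p = 2.8e-06), and Gli1 differed by -0.53 ± 0.08 (adjusted p = 1.4e-05). At 12 h Ptch1 (1428853_at) differed by -0.54 ± 0.09 (adjusted p = 5.8e-05) and Gli3 (1455154_at) by 0.53 ± 0.09 (adjusted p = 4.6e-05). The labels give no difference between these arrays besides the letter, and what sets them apart was not tested. The change from 12 h to 24 h itself differed between the letters for 1 member probe set, Gli2 1459211_at, where 15% of all probe sets did. It was -0.18 on arrays A to C and 0.20 on arrays D to F, a difference of 0.39 ± 0.12 (limma adjusted p = 0.026). The rise of Hhip (1421426_at) was 1.21 on arrays A to C and 0.66 on arrays D to F, and that difference did not pass (-0.55 ± 0.19, adjusted p = 0.055).

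The ends of the course, 72 h against 8 h, lie in different sets, so each change is given with the array set as a block beside it. Without the block 8 of the 16 probe sets passed (60.6% of all), 4 higher (23.6%) and 4 lower (37%). With the block the 4 Hhip probe sets passed as higher in addition. Gli1 changed by -2.72, or -2.30 with the block. Ptch1 (1428853_at) changed by -1.30, or -0.81 with the block. Smo (1427049_s_at) rose by 1.74, or 1.52, and Gli3 (1455154_at) by 1.76, or 1.35. All of these passed in both fits. Hhip (1421426_at) stood at -0.02 (limma adjusted p = 0.92) without the block and at 0.75 with it (adjusted p = 0.002), and its other probe sets, at 0.35, 0.26 and 0.22 without the block, passed with it, at 1.22, 0.88 and 0.56. Without the block 1455277_at and 1438083_at also passed without 8 h array B (0.56 and 0.36, adjusted p = 0.0083 and 0.047), and 1437933_at without 72 h array C (0.44, adjusted p = 0.037). The net change of Hhip over the whole course thus has no settled size here.

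The rest of the pathway was taken from a list of 40 genes, of which 38 had a single-symbol probe set. From 8 h to 24 h A to C 19 were higher, 6 lower and 13 did not pass, with a median of 0.18 log2. From 12 h D to F to 72 h 19 were higher, 5 lower and 14 did not pass, with a median of 0.32. Over all probe sets 17.6% were higher and 13.9% lower in the first comparison, 23.3% and 30.2% in the second, with medians of -0.04 and -0.08.

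The ligand genes Shh, Ihh and Dhh passed in neither comparison with their highest probe sets, though another Dhh probe set was called lower in set 2. Shh averaged 5.81 ± 0.07 log2 (SD, n = 3) at 8 h and 5.90 ± 0.12 on 24 h arrays A to C, a change of 0.09 ± 0.15 (limma adjusted p = 0.7). Of the ligand release genes, Scube3, which helps free the lipid-bearing ligand, rose by 0.48 ± 0.10 over the first day (adjusted p = 0.00079) and by 2.20 ± 0.10 in set 2 (adjusted p = 8.2e-15). Disp1, the Dispatched transporter that exports ligand, rose by 0.17 and 0.75 (adjusted p = 0.035 and 1e-10), which its second probe set did not show in either comparison. Hhat and Scube2, of the same list, went the other way over the first day, at -0.50 and -0.51 (limma adjusted p = 0.00025 and 0.01). In set 2 Hhat rose by 0.45 (adjusted p = 0.00034), and the change of Scube2, 0.19, did not pass (adjusted p = 0.29). The second Hhat probe set passed in neither comparison.

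All 4 measured co-receptors rose over the first day, and 3 of 4 rose in set 2. Gas1, a membrane-anchored co-receptor, went from 8.32 ± 0.14 log2 (SD, n = 3) at 8 h to 9.58 ± 0.20 on 24 h arrays A to C, and from 9.66 ± 0.13 on 12 h arrays D to F to 13.22 ± 0.22 at 72 h. Its changes of 1.27 ± 0.12 and 3.56 ± 0.12 passed (limma adjusted p = 2.1e-08 and 4.1e-17). Boc and Cdon, a related pair of co-receptors, rose by 0.61 and 0.98 over the first day (adjusted p = 6.2e-05 and 1.2e-06) and by 2.48 and 1.78 in set 2 (adjusted p = 1.1e-15 and 1.1e-11). The second Cdon probe set passed as higher only in set 2. Of 2 other Boc probe sets, 1 passed as higher in each comparison. Lrp2 rose by 0.95 over the first day (adjusted p = 6.4e-06), but in set 2 its change of 0.19 did not pass (adjusted p = 0.25) and another of its probe sets passed in the opposite direction.

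Among 11 relay genes 5 were higher and 2 lower over the first day, and 6 higher and 2 lower in set 2. Gpr161, a ciliary receptor that restrains the pathway, rose by 0.87 ± 0.11 and 1.77 ± 0.11 (limma adjusted p = 1.1e-06 and 1.2e-12), while its second probe set did not pass. Gsk3b, a kinase that helps process Gli proteins, rose by 0.46 and 0.94 (adjusted p = 1.8e-05 and 5.6e-11). Sufu, which holds Gli proteins in the cytoplasm, changed by 0.20 (adjusted p = 0.052) and then rose by 0.36 (adjusted p = 0.00047), with another probe set lower. Evc and Evc2, ciliary partners of Smoothened, fell by 0.22 and 0.40 over the first day (adjusted p = 0.017 and 5.9e-06). Kif7, the ciliary kinesin that regulates Gli proteins, passed in neither, at 0.00 and -0.06. Of 4 genes of cilium transport, 3 were higher over the first day, and in set 2 2 were higher and Ift88 was lower by a change of -0.27 (adjusted p = 0.00059).

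The 12 other listed Gli targets and ventral neural factors did not share a direction, with 5 higher and 2 lower in each comparison. Hsd11b2, the enzyme that inactivates glucocorticoids, rose by 1.11 ± 0.20 and 3.19 ± 0.20 (limma adjusted p = 0.00011 and 1.5e-12). Bcl2, an inhibitor of cell death, rose by 0.64 and 1.44 (adjusted p = 9.5e-06 and 3e-12). Foxa2, a floor plate and endoderm factor, rose by 1.25 and 1.62 (adjusted p = 2.8e-06 and 1.1e-08) and is also in the endoderm marker list, of which 7 of 8 were higher in set 2. Olig2, the motor neuron progenitor factor, changed by -0.28 over the first day (adjusted p = 0.25) and fell by 2.00 ± 0.18 in set 2 (adjusted p = 1.3e-09). Mycn, a Myc family gene of dividing progenitors, fell by 0.86 over the first day (adjusted p = 2.1e-06) and rose by 0.59 in set 2 (adjusted p = 9e-05). Nkx2-2, of the ventral neural tube, lay at 3.84 at 8 h, under the lower quartile. On 24 h arrays A to C it averaged 4.85 ± 0.46 (SD, n = 3). The change of 1.00 ± 0.16 (limma adjusted p = 3.5e-05) is taken as a lower bound. In set 2 Nkx2-2 lay under the lower quartile in all groups, at 3.55 on 24 h arrays D to F, and no change is given.

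**Figure D4:**
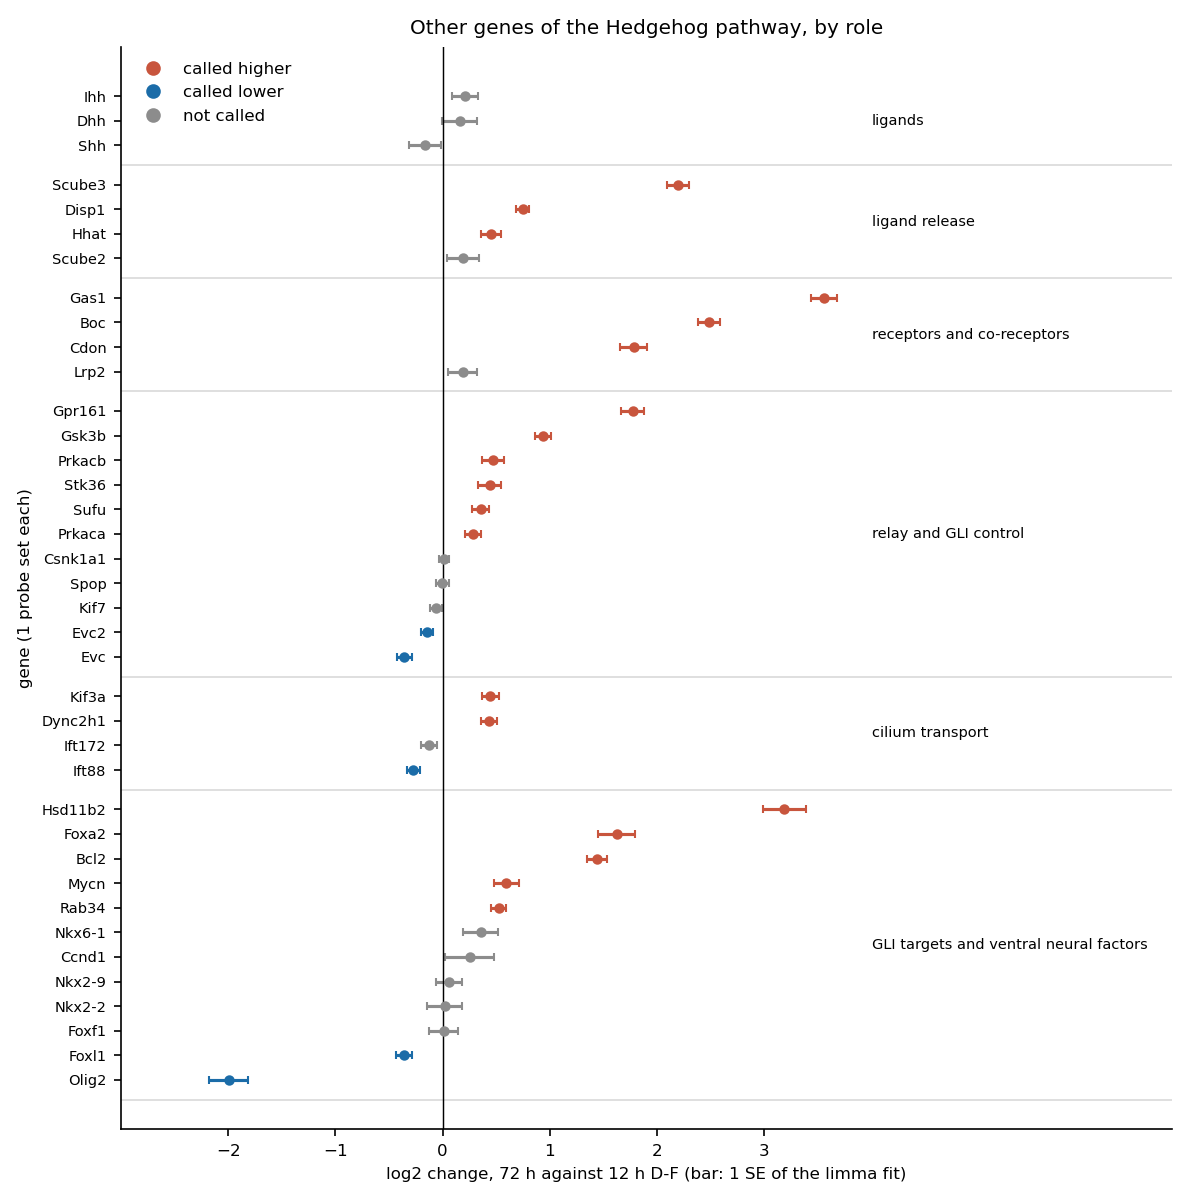
Log2 change (horizontal axis) of the 38 measured genes of the pathway list, grouped by role (vertical axis), in 72 h against 12 h D to F; bars are 1 SE of the limma fit and colours show the call. Gas1 at 3.56, Hsd11b2 at 3.19 and Boc at 2.48 reach farthest right, and Olig2 lies farthest left.

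Across the 10 group means, Gli1 and Ptch1 had a Pearson r of 0.86 and Gli3 and Smo one of 0.96, while Gli1 had -0.92 with Gli3 and -0.84 with Smo. Within the 6 groups of set 2 these were 0.87, 0.96, -0.94 and -0.83. Hhip had its highest r with Ptch1, at 0.49. These describe 10 points that share arrays, time order and the 2 sets, and carry no test.

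For each gene the 5 genes with the most similar course were taken among those whose group means span at least 1 log2, by Pearson r over the 10 group means. Gli1 was most like Abcc4 (r = 0.993), C430042M11Rik, 1700019D03Rik, Efcab2 and Lpin3, and Ptch1 most like Cpn1 (0.985), Ankrd34b, Hapln4, Tmem63a and Sult5a1. Gli3 was most like Dbn1 (0.996), Ptges3l, Zfp503, Plagl1 and Ubtd2, and Smo most like Slc5a3 (0.996), Slc22a23, Mpdz, Cpd and Sox4. Gli2 and Hhip had looser matches, led by Shf (0.881) and Fndc1 (0.895). Over set 2 alone the top 5 shared 1 gene with these for Ptch1 and none for the other genes, so the names depend on the groups used.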

How the data were processed

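RNA of KH2 cells was measured on 30 Affymetrix arrays. The deposited values are log2 intensities per probe set. Per the submitters' processing notes the authors used limma 3.8.3, and the method of background correction, summary and normalization is not given in the sources used here. Per the labels' protocols biotin label was made from 200 ng of RNA. The replating step is described in 2 ways, with RNA from the adhered cells or from the medium drawn off.

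Of 45101 probe sets, 64 controls, 9160 with no symbol and 932 with several symbols in GEO's platform annotation were left out, and 34945 were fitted in limma 3.58.1 (R 4.3.3). The fit had 10 groups of 3 arrays, with 12 h and 24 h split by title letter, empirical Bayes variance and no block, filter or pseudocount. Calls were two-sided, at an adjusted p (Benjamini-Hochberg, all fitted probe sets) under 0.05. The fit was tested on simulated data. Changes are differences of log2 group means, with the SE of the fit. Where the lower of 2 means lay under 4.73 log2 a change is a lower bound, against which no order is read. For a gene with several probe sets the highest mean over all arrays was taken for the pathway list, the markers and the likeness. Named were all 6 members, any pathway gene, and the 5 most similar genes per member.

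The members, lists and the split by letter were chosen with earlier results of these data known. The set 1 and set 2 split rests on the difference between 2 spike-in probe sets (BioDn 5' minus BioC 5'). Promoter sequences are from RefSeq (GRCm38.p6), matched by symbol for 5 of 6 members. Alternatives covered grouping by labelled time, blocks, normalization, filters, weights and arrays left out.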

Additional observations from a re-analysis of the deposited data

Results flagged for a closer look

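The change of Gli2 (1459211_at) between 12 h and 24 h differed between arrays A to C and arrays D to F by 0.39 log2 (SE 0.12, limma adjusted p = 0.026), in a test of the difference itself that was added after seeing the data. It was -0.18 on arrays A to C and 0.20 on arrays D to F, and neither change passed alone (adjusted p = 0.12 and 0.073). The second Gli2 probe set, 1446086_s_at, differed by 0.25 and did not pass (adjusted p = 0.19). Of all probe sets 15% passed the same test.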

How the results depend on the processing

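Of 2929 refitted changes of single probe sets, 2794 kept their side of the threshold, 86 lost their call, 46 gained it and 3 turned. A turn of direction was counted only where the change passed as reported or as refitted. The 3 that turned were Hhip (1421426_at) at 36 h against 24 h D to F, -0.09 with 12 h and 24 h each as 1 group (0.43 as reported), Hhip at 72 h against 8 h, 0.75 when array set was a block (-0.02), and Ptch1 (1439663_at), 0.15 at 48 h against 12 h D to F in place of 72 h (-0.39), an alternative added after seeing the data. With times grouped as labelled, 3 members passed at 16 h against 12 h (6 as reported) and 3 at 48 h against 36 h (9). Array weights gave 9 at 60 h against 48 h (3) and 5 at 72 h against 60 h (2). Fitting only the groups compared gave 0 at 72 h against 60 h, and 7 at 24 h D to F against A to C (11). In limma at 72 h against 60 h the count of 2 became 1 to 3 with 1 array left out. The cause of these moves was not tested. With 1 array left out at a time, the counts ran from 11 to 12 at 24 h A to C against 8 h, 14 in every fit at 72 h against 12 h D to F, 6 to 9 at 36 h against 24 h, 7 to 9 at 48 h against 36 h, 2 to 6 at 60 h against 48 h, and 8 to 10 at 72 h against 8 h. The title letters were taken to pair 2 groups where all 3 same-letter correlations of deviations were over 0.1, which held for no comparison made here. Of 87 same-letter pairs 22 were over 0.1 (-0.30 to 0.60, median -0.01). For 60 h with 72 h the correlations were 0.23, -0.03 and 0.52 for letters A, B and C. This rule cannot show that pairing is absent. In 1 of 29 pairs of groups, 36 h with 60 h, which were not compared, all 3 same-letter pairs were over 0.1 (0.21 to 0.60). With the letter as a replicate block 2 calls were lost, both at 36 h against 24 h D to F, Gli2 1459211_at (0.26, adjusted p = 0.059) and Hhip 1421426_at (0.43, adjusted p = 0.068), and the other 206 changes kept their call. Another background correction was not run, since the values are summarised. Signal near the lower quartile limits Smo 1442215_at and Nkx2-2.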
